A study of Arabidopsis thaliana with 12 samples.

Results

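Triploid Arabidopsis embryos sired by tetraploid wt pollen (3x wt) were compared with diploid embryos sired by diploid wt pollen (2x wt), in all 6 of the 12 libraries of the series that carry wt pollen. Members were chosen by the labels alone, and the comparison covers every gene that could be tested. The mother was diploid Col-0 wt in each cross, and the tetraploid Col-0 pollen parent had been made with colchicine. Embryos were dissected from developing seeds at the torpedo stage, at 8 days after pollination (DAP) for 3x wt and 6 DAP for 2x wt, and washed. Each library was made from about 150 pooled embryos of distinct plants, with 3 biological replicates per group. Stage was thus matched while age was not (a gap of 2 days), and the effects of ploidy and of age cannot be told apart in any value below. The remaining 6 libraries, 3x nrpd1 and 2x nrpd1, had the same mother and stages (8 and 6 DAP by the labels) and pollen that carried nrpd1-3, a mutation in the largest subunit of RNA polymerase IV, from a colchicine-made tetraploid and a diploid parent, and were used only for a test of interaction. The sources differ on the age of 3x nrpd1 embryos, and if these were younger than 3x wt embryos, age and pollen genotype cannot be told apart in that test. Values are RPKM (reads per kilobase of exon, scaled to the depth of each library) as deposited, and the steps between their low values put the depth, as an estimate, at 6851605 to 9101778 reads per 3x wt library (median 7837785) and 9443797 to 13025655 reads per 2x wt library (median 12621955). The study lists more mapped reads than these estimates for each of the 6 libraries, so read floors drawn from the estimates are uncertain. It also lists a lower share of reads mapped in 3x wt than in 2x wt.

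Torpedo-stage embryos stand at the turn from pattern formation to seed filling. In the phase that follows, the B3 factors LEC2, FUS3 and ABI3, the CCAAT-box subunits LEC1 and L1L and abscisic acid (ABA) act together to switch on genes for seed storage proteins, oil bodies and late embryogenesis abundant (LEA) proteins, while cell division and the making of new ribosomes slow down. A triploid seed from a tetraploid father has an excess of paternal genomes in its endosperm, the tissue that feeds the embryo, and in many accessions such seeds fail. Fewer cells of a type and less RNA per cell cannot be told apart in pooled embryos.

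Of 33602 genes in the table, 17965 reached 1 RPKM in at least 3 of the 6 libraries and were tested with limma on log2(RPKM + 0.5). Calls required a log2 fold change (3x wt over 2x wt) beyond 1 in either direction together with an adjusted p under 0.05 (Benjamini-Hochberg). By this rule 1988 genes were up-regulated in 3x wt (11.1% of those tested) and 872 were down-regulated (4.85%). Rises were also the larger changes. The log2 fold change passed 2 for 718 up-regulated genes, 3 for 287 and 5 for 45, whereas it was below -2 for 66 down-regulated genes and below -3 for 5. The median was 1.69 among up-regulated and -1.25 among down-regulated genes, with a median SE of 0.14 over all genes tested. The median up-regulated gene stood at 12.6 RPKM in 3x wt, against 2.96 RPKM in 2x wt, and the median down-regulated gene at 3.28 RPKM in 3x wt, against 10.3 RPKM in 2x wt. Among the genes under 1 RPKM in 2x wt, 609 of 749 were up-regulated, a share that the filter itself raises, since such a gene was tested only if 3x wt expressed it. Among the 1188 genes at 100 RPKM or more in 2x wt, 63 were up-regulated and 52 down-regulated. A further 6358 genes had an adjusted p under 0.05 with a log2 fold change within 1 of 0. After scaling, every 3x wt value lay above every 2x wt value for 30.8% of the genes tested and below it for 30.0%, and counts of this kind for a gene group are read against those shares. Counts of called genes in a group are likewise read against 11.1% up-regulated and 4.85% down-regulated.

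The balance of the 2 directions depended on how the libraries were scaled. The study's own count test of this comparison gave the reverse balance, with more genes down-regulated than up-regulated. With median-ratio scaling, which is used here, 69.5% of called genes were up-regulated and the median of all genes was -0.01, while RPKM as deposited gave 1685 up and 1292 down (56.6%, median -0.16) and quantile normalization 1700 up and 1260 down (57.4%, median -0.11). Both alternatives lowered the median of all genes, which makes a fall hard to lose, and all 872 down-regulated genes kept their call. Of the 1988 up-regulated genes, 1685 kept the call with RPKM as deposited and 1700 with quantile normalization. When 1 3x wt library was left out, 1488 to 1490 of the 1988 up-regulated genes could still be tested, because a gene above 1 RPKM in 3x wt alone then has too few libraries, and 1346 to 1462 of them kept the call. None of the called genes that could be tested changed sign without any 1 library. The first principal component of the 6 libraries took 83.6% of the variance and separated the groups, and Pearson's r across genes was 0.974 to 0.982 within 3x wt, 0.983 to 0.988 within 2x wt and 0.854 to 0.902 between them.

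**Figure D1:**
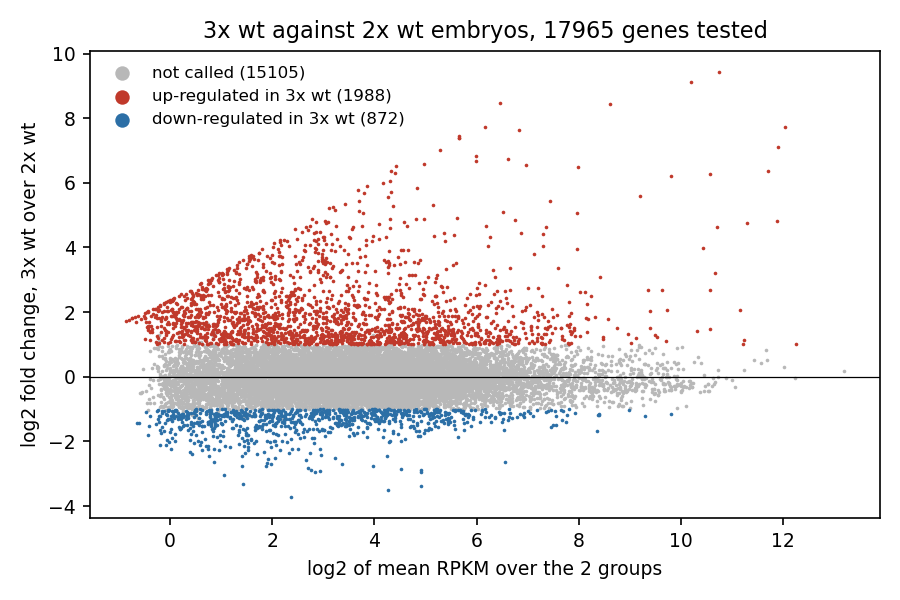
Log2 fold change of 3x wt over 2x wt embryos (vertical axis) against the log2 of the mean RPKM over both groups (horizontal axis) for 17965 genes tested. Red points are the 1988 up-regulated and blue points the 872 down-regulated genes; rises reach past 9 on the log2 scale at high RPKM, while no fall goes below -4.

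Some of the genes described below are shown first by their promoters, because all storage protein and oil-body genes tested were up-regulated, and because NAP57 and BTF3 were among the down-regulated genes of nucleolus and translation. The 250 bases before the annotated start of 7 of them were read from the TAIR10.1 assembly of RefSeq, in the direction of transcription. Capitals mark, on either strand, the letters CATGCA (the core of the RY element that B3 factors bind), its extended form CATGCATG, CACGTG (the G-box) and ACGTGGC (an ABA response element, which overlaps the G-box where both occur), and TGGGCC or TGGGCT (the site II element of ribosomal and nucleolar genes). SESA3 encodes a 2S albumin, CRC a cruciferin, OLEO1 an oleosin, PER1 a peroxiredoxin of seeds, LEA (AT2G21490) a dehydrin-type LEA protein, NAP57 the nucleolar pseudouridine synthase and BTF3 a protein of the nascent polypeptide-associated complex.
SESA3, chr4:13611546-13611795, plus strand: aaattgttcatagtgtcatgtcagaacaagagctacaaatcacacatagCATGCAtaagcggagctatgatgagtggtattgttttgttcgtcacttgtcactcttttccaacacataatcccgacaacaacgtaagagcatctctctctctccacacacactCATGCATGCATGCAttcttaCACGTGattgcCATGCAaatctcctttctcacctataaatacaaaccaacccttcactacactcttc
CRC, chr4:14087306-14087555, plus strand: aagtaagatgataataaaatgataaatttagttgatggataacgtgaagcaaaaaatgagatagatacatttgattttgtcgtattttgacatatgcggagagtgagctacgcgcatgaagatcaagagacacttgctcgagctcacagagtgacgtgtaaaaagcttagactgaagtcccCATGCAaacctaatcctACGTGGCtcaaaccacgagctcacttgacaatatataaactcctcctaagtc
OLEO1, chr4:12900180-12900429, plus strand: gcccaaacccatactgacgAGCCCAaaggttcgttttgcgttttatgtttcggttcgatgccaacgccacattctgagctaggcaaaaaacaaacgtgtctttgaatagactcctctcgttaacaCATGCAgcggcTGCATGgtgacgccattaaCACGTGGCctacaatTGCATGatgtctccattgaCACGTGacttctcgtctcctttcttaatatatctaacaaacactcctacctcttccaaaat
PER1, chr1:17780179-17780428, plus strand: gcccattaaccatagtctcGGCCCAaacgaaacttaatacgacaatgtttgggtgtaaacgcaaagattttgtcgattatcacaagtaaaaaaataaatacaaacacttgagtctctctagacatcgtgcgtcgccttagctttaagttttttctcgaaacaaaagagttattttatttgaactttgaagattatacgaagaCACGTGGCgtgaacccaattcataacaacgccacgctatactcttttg
LEA, chr2:9207126-9207375, minus strand: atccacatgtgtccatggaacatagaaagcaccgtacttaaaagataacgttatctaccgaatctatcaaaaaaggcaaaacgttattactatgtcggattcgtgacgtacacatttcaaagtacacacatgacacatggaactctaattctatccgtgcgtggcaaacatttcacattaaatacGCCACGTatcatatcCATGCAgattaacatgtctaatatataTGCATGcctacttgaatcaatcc
NAP57, chr3:21156076-21156325, minus strand: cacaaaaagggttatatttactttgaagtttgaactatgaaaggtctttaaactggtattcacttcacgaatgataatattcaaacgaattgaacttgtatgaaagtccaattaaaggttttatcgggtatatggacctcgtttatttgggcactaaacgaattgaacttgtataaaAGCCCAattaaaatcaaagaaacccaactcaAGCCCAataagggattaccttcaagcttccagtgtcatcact
BTF3, chr1:6153983-6154232, minus strand: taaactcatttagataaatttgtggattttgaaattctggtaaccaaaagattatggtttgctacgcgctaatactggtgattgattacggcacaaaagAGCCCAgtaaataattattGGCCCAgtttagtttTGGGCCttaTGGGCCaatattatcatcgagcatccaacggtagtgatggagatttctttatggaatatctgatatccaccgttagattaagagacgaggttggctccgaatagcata

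The SESA3 window held 7 matches to CATGCA and 2 to CATGCATG, which overlap in a single run, and 1 CACGTG, 67 bases before the start. OLEO1 held 3 CATGCA, 2 CACGTG, 1 ACGTGGC and 1 TGGGCT, and CRC 1 CATGCA and 1 ACGTGGC. PER1 had no CATGCA but 1 CACGTG and 1 ACGTGGC within 48 bases of the start, and 1 TGGGCC. The site II matches of OLEO1 and PER1 lay 231 bases before the start. LEA had 2 CATGCA and 1 ACGTGGC. In NAP57 there were 2 TGGGCT and in BTF3 1 TGGGCT and 3 TGGGCC. Windows of 300 bases, 250 before to 50 after the start, were then read for 26711 protein-coding genes. CATGCA occurred in 84.6% of the 13 storage protein promoters, in all 12 oil-body promoters and in 20.0% of the 30 LEA promoters, beside 15.6% of up-regulated, 7.31% of down-regulated, 8.20% of tested and 9.78% of all genes read. CACGTG occurred in 61.5% of storage protein, 41.7% of oil-body and 46.7% of LEA promoters, beside 15.6% of up-regulated, 6.67% of down-regulated and 9.38% of tested genes. TGGGCC or TGGGCT was found in 65.7% of ribosomal protein and 58.8% of ribosome biogenesis promoters, 15.4% of up-regulated, 29.7% of down-regulated and 27.7% of tested genes. AAACCCTA (the telo-box) was in 37.2% of ribosomal protein promoters against 5.95% of tested genes, and TTTCCCGC or TTTGGCGC (E2F sites) in 42.9% of DNA replication promoters against 1.39% of tested genes. These matches are descriptions of letters in a window and not of binding.

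**Figure D2:**
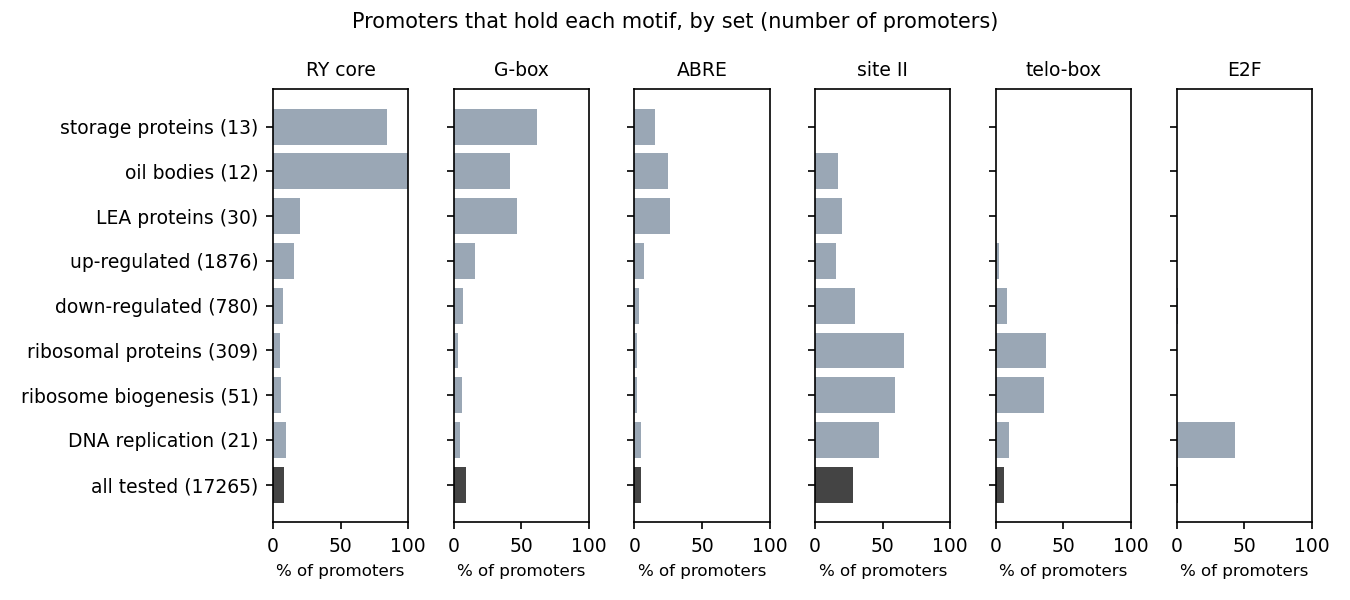
Share of promoters, in percent, that hold each motif on either strand within 250 bases before to 50 after the start, by set of genes (number of promoters in parentheses). The RY core is in 84.6% of storage protein and all oil-body promoters against 8.20% of all tested genes, and site II in 65.7% of ribosomal protein promoters against 27.7%.

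Seed storage protein genes rose as a whole. All 13 members of the list were tested and up-regulated, with a median log2 fold change of 6.48, beside 11.1% and -0.01 over all genes, and 1 of them was tested only through its level in 3x wt. The 2S albumin gene SESA3 (AT4G27160, chromosome 4, 13611796 to 13612563) had 5986, 8576 and 10374 RPKM in 3x wt, against 56.02, 37.7 and 36.95 RPKM in 2x wt (log2 fold change 7.71 ± 0.23, adjusted p = 9.2e-08). Its neighbour SESA2 (AT4G27150), read from the same albumin cluster and therefore not fully separable from it, had 5364, 7592 and 9723 RPKM in 3x wt, against 60.7, 51.4 and 66.3 RPKM in 2x wt (log2 fold change 7.11 ± 0.204, adjusted p = 7.2e-08). The 12S globulin CRA1 (AT5G44120, chromosome 5, 17756238 to 17758336) had 3179, 4715 and 6668 RPKM in 3x wt, against 216, 173 and 184 RPKM in 2x wt (log2 fold change 4.77 ± 0.24, adjusted p = 1.5e-06). Each of these 3 was thus well above 1 RPKM in every 2x wt library. The globulin CRC (AT4G28520), whose promoter is printed above, had 2153, 3676 and 4457 RPKM in 3x wt, against 6.08, 2.48 and 7.13 RPKM in 2x wt (log2 fold change 9.43 ± 0.35, adjusted p = 2.5e-07), the highest fold change of all genes tested. SESA5 (501 against 5.66 RPKM, 6.48 ± 0.27) and the vicilin-type PAP85 (194 against 1.52 RPKM, 6.72 ± 0.16) were scarcer in 2x wt. The smallest rise was that of the cupin AT4G36700, with 593, 609 and 651 RPKM in 3x wt, against 263, 221 and 239.9 RPKM in 2x wt (log2 fold change 1.52 ± 0.096, adjusted p = 4.9e-06). Summed over the list, storage transcripts amounted to 22117, 32372 and 40565 RPKM in 3x wt, against 831, 669.8 and 764 RPKM in 2x wt, and the 2 groups lay apart (exact permutation test, two-sided, p = 0.1, which no split of 3 against 3 libraries can better).

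All 12 oil-body genes were up-regulated too, with a median of 3.93. Of these, 3 passed the filter only through 3x wt, and the 9 that could be tested without any 1 3x wt library kept the call. OLEO1 (AT4G25140, chromosome 4, 12900430 to 12901577), the most abundant seed oleosin transcript here, had 5421, 7714 and 8575 RPKM in 3x wt, against 360.4, 252 and 252 RPKM in 2x wt (log2 fold change 4.81 ± 0.21, adjusted p = 6.5e-07). The caleosins CLO1 and CLO2, calcium-binding proteins of the oil-body surface, were scarce in 2x wt and rose by 6.55 ± 0.23 and 6.05 ± 0.28 on the log2 scale. The sterol dehydrogenase HSD1 is encoded by a pair of near-identical genes (AT5G50600 and AT5G50700) whose reads cannot be separated, with 73.7, 113 and 117 RPKM in 3x wt, against 0.304, 0.05901 and 0 RPKM in 2x wt for the first. OLEO3, at 3607 against 953 RPKM, had the smallest rise (2.08). OLEO1, OLEO2, OLEO5 and HSD5 overlap another annotated gene, and the libraries did not mark strand.

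Among LEA genes, whose products protect membranes and proteins during drying, 30 of 51 could be tested, and 21 rose while 2 fell (median 2.57). Among those tested, 4 passed the filter only through 3x wt, and 15 to 17 of the rises kept the call without 1 3x wt library. AT2G21490, named LEA in the annotation, had 104, 149.6 and 177 RPKM in 3x wt, against 0.474, 0 and 0.253 RPKM in 2x wt (log2 fold change 7.72 ± 0.26, adjusted p = 1.7e-07). ECP63 (AT2G36640) had 95.3, 132 and 152 RPKM in 3x wt, against 1.39, 0.241 and 0.732 RPKM in 2x wt (6.82), and the dehydrin XERO1 42.5, 47.4 and 54.5 RPKM in 3x wt, against 2.35, 1.32 and 1.32 RPKM in 2x wt (4.66). The late markers EM1 and EM6 were not tested, as they stayed under 1 RPKM in both groups, with means of 0.447 and 0.519 RPKM in 3x wt, against 0 in 2x wt. DI21 (123 against 278 RPKM, -1.02) and AT4G38410 (1.37 against 3.85 RPKM, -1.23, adjusted p = 0.0291) were lower in 3x wt. Neither call held throughout: DI21 missed the fold threshold without 3x wt replicate 1 (-0.86) or 2x wt replicate 2 (-0.91), and AT4G38410 had an adjusted p of 0.066 to 0.1 without 3x wt replicate 1 or 2 or 2x wt replicate 1 or 3. Storage vacuole genes followed the storage proteins, with 5 of 9 tested up-regulated. The seed tonoplast aquaporins TIP3;1 and TIP3;2 rose by 5.32 ± 0.26 and 2.84 ± 0.16, the processing protease bVPE by 1.52 ± 0.13 and the aspartic protease PASPA2 by 1.901 ± 0.12.

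The 3x wt libraries differed among themselves in these transcripts. Replicate 1 of 3x wt had the lowest RPKM of the group in all 13 storage protein, all 12 oil-body and all 21 LEA genes that were up-regulated, and replicate 3 the highest in 12, 12 and 16 of them. In 2x wt, replicate 1 was highest for 9 of the 13 and 10 of the 12. Even so, the lowest 3x wt value stood above the highest 2x wt value for every storage protein and oil-body gene.

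**Figure D3:**
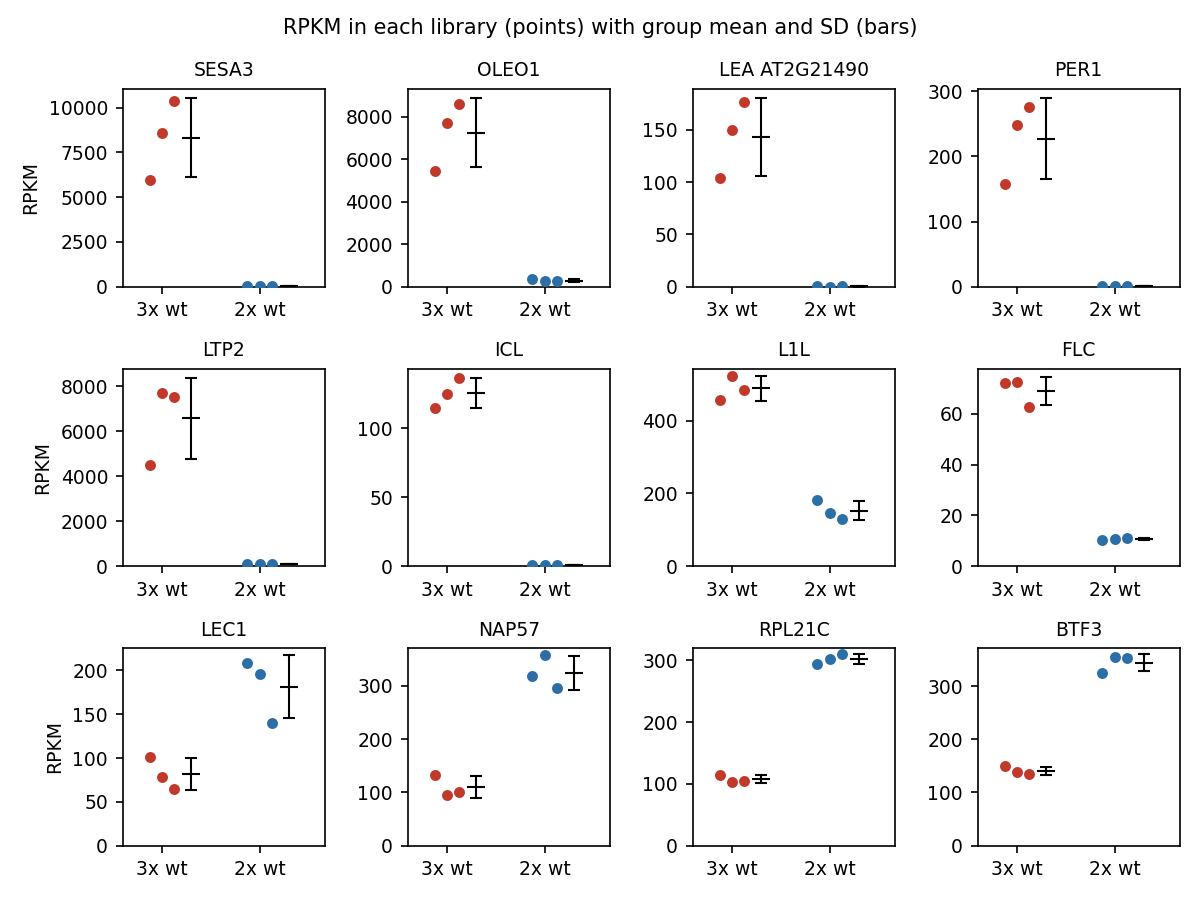
RPKM of 12 genes in each 3x wt and 2x wt library (points), with the mean and SD of each group (n = 3) as bars beside them; every vertical axis starts at 0. All 3x wt points lie above the 2x wt points for SESA3, OLEO1, LEA AT2G21490, PER1, LTP2, ICL, L1L and FLC, and below them for LEC1, NAP57, RPL21C and BTF3.

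The regulators of this phase were mostly within the fold threshold. Of 22 maturation regulators tested, 5 were up-regulated (22.7%, beside 11.1% of all genes) and none was down-regulated, with a median of 0.22. With RPKM as deposited 2 were down-regulated, LEC1 (-1.15) and LEC2 (-1.08), and with quantile normalization LEC1 (-1.14). L1L, the LEC1-like CCAAT-box subunit, had 457, 523 and 484 RPKM in 3x wt, against 181, 146 and 130.4 RPKM in 2x wt (log2 fold change 1.85 ± 0.14, adjusted p = 1.1e-05). The bZIP factors ABI5 (45.02 against 13.04 RPKM), bZIP67 (65.7 against 27.7 RPKM) and EEL (171 against 74.98 RPKM), which act at ABA response elements in seed genes, rose by 1.91, 1.39 and 1.36. DOG1, the dormancy gene, was at 1.56, 3.101 and 3.71 RPKM in 3x wt, against 0, 0.144 and 0 RPKM in 2x wt (2.599). LEC1 did not pass the fold threshold, with a negative value, at 101, 78.6 and 65.2 RPKM in 3x wt, against 208, 196 and 140.3 RPKM in 2x wt (log2 fold change -0.99 ± 0.18, adjusted p = 0.00185), and LEC2 likewise at 7.74 against 17.2 RPKM (-0.92). FUS3 (69.8 against 45.5 RPKM, 0.79), ABI3 (162 against 153 RPKM, 0.24), WRI1 (199 against 171 RPKM, 0.38) and AGL15 (101 against 100.2 RPKM, 0.18) were also within the threshold. The highest 3x wt value of LEC1 lay below its lowest 2x wt value, and LEC1 passed the threshold without 3x wt replicate 1 (-1.12) or 2x wt replicate 3 (-1.20), as did LEC2 without 3x wt replicate 2 (-1.01) or 2x wt replicate 2 (-1.08).

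ABA metabolism showed rises on both its sides. NCED9 (AT1G78390), an epoxycarotenoid dioxygenase that makes the ABA precursor in seeds, had 8.95, 19.4 and 16.4 RPKM in 3x wt, against 1.48, 0.426 and 0.962 RPKM in 2x wt (log2 fold change 3.53 ± 0.34, adjusted p = 4.5e-05), and NCED3 had 78.3, 72.4 and 79.98 RPKM in 3x wt, against 43.8, 32.04 and 30.8 RPKM in 2x wt (1.28). The hydroxylases that degrade ABA rose as well: CYP707A1 by 1.46 ± 0.12, CYP707A2 by 2.29 ± 0.27 and CYP707A3 by 1.57 ± 0.27. BGLU18, which frees ABA from its glucose ester, was at 1.84 against 0.0867 RPKM (2.04), and ABA3, of the last step of synthesis, did not pass the test (2.05 against 2.13 RPKM, 0.06). Of the 11 genes of synthesis and breakdown tested, 6 were up-regulated (54.5%, beside 11.1% of all genes) and none down-regulated. Among those tested, 2 passed the filter only through 3x wt. Without 1 3x wt library 4 of the 6 rises could be tested, and all 4 kept the call. Signaling genes went both ways. The receptors PYL8 (5.72 against 21.6 RPKM, -1.71), PYL1 (6.87 against 20.2 RPKM, -1.35) and PYL2 (12.7 against 33.7 RPKM, -1.26) were down-regulated, while PYL5 was up-regulated (16.7 against 4.82 RPKM, 1.87). The clade A phosphatases HAI1 (1.91), AHG1 (1.75), ABI2 (1.67) and HAB1 (1.28), which hold the pathway off until receptors bind them, rose, and so did the importer NPF4.6 (1.98). The kinases SNRK1.3 and SNRK2.8 had means of 0.279 and 0.881 RPKM in 3x wt, against 0 and 0.155 RPKM in 2x wt, and were not tested. In all, 6 of 28 signaling genes tested were up-regulated (21.4%) and 3 down-regulated (10.7%), beside 11.1% and 4.85% of all genes. Without 1 3x wt library 4 of these 6 rises could be tested, and all 4 kept the call.

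Oil synthesis was uneven along the pathway. None of the 21 genes of plastid fatty acid synthesis was called (log2 fold changes -0.22 to 0.700), although limma gave 8 of them an unadjusted p under 0.05, all 8 positive, beside 57.5% of all genes tested. Among 17 genes that elongate, desaturate or assemble the oil, 6 were up-regulated. FAE1, the elongase that makes the very-long-chain acids of seed oil, had 159, 192 and 192 RPKM in 3x wt, against 24.6, 15.2 and 18.6 RPKM in 2x wt (log2 fold change 3.37 ± 0.16, adjusted p = 1.1e-06). The desaturases FAD2 (2165 against 878 RPKM, 1.46) and FAD3 (147 against 76.5 RPKM, 1.103), the phosphatidylcholine exchange enzyme ROD1 (1.52), the acyltransferase DGAT3 (1.401) and the elongase subunit KCR1 (1.22) rose too. Genes best known from oil use in seedlings were among the rises. The glyoxylate-cycle gene ICL, isocitrate lyase, had 115, 125 and 137 RPKM in 3x wt, against 0.949, 0.849 and 0.7804 RPKM in 2x wt (log2 fold change 6.66 ± 0.12, adjusted p = 1.2e-08), MLS, malate synthase, 32.5, 36.6 and 38.1 RPKM in 3x wt, against 2.58, 2.58 and 3.504 RPKM in 2x wt (3.58), and PCK1, which starts gluconeogenesis, 154, 192 and 187 RPKM in 3x wt, against 62.5, 58.2 and 65.6 RPKM in 2x wt (1.67). Together with LACS7 (2.37), these were 4 up-regulated genes of 18 tested, with the remaining 14 between -0.24 and the threshold. Of the raffinose-series genes, GolS1 (2.18) and RS5 (1.16) rose and SIP2 fell (-1.33) among 5 tested.

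Photosynthesis genes had mostly positive and chlorophyll synthesis genes mostly negative values. Of 55 nuclear photosynthesis genes, 4 were up-regulated (7.27%, beside 11.1% of all genes) and none down-regulated, and 43 had a positive log2 fold change (median 0.29). With RPKM as deposited 1 was up-regulated and with quantile normalization 2. The 4 encode antenna proteins, LHCB4.3 (143 against 67.9 RPKM, 1.23), LHB1B1 (1.13), LHB1B2 (1.15) and LHCB1.2 (3024 against 1734 RPKM, 1.02), and LHCB4.3 alone of the 4 kept its call without 2x wt replicate 3 (0.81, 0.89 and 0.67 for LHB1B1, LHB1B2 and LHCB1.2). LHCB1.2 was at 0.85 with RPKM as deposited and 0.16 with quantile normalization, and had an adjusted p of 0.056 in a limma fit of all 12 libraries. Of 15 genes of chlorophyll synthesis, 13 had a negative log2 fold change, 11 had every scaled 3x wt value below every 2x wt value, and 3 were down-regulated: GSA1 (62.8, 47.7 and 52.4 RPKM in 3x wt, against 126, 133 and 133 RPKM in 2x wt, -1.11), the magnesium chelatase subunit CHLI1 (111 against 257 RPKM, -1.05) and the protochlorophyllide reductase PORC (22.3 against 56.9 RPKM, -1.196). CHLI1 was at -0.98 without 3x wt replicate 3. NYE2, a stay-green protein of chlorophyll breakdown, was at 8.07, 9.598 and 12.1 RPKM in 3x wt, against 0.198, 0.319 and 0 RPKM in 2x wt (log2 fold change 4.05 ± 0.26, adjusted p = 4.9e-06). It was the single call among 8 genes of chlorophyll breakdown (12.5%, beside 11.1% of all genes), and was not testable with any 3x wt library left out.

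Of the 13 tested genes that the annotation calls plastid transcriptionally active (PTAC), proteins that work with the plastid-encoded RNA polymerase, 6 were down-regulated (46.2%, beside 4.85% of all genes) and none up-regulated, with a median of -0.92, the lowest of the 220 annotated families with at least 10 tested genes. PTAC3 (AT3G04260) had 18.8, 12.9 and 13.9 RPKM in 3x wt, against 48.6, 50.5 and 55.7 RPKM in 2x wt (log2 fold change -1.59 ± 0.12, adjusted p = 1.4e-05), and PTAC12 27.2, 17.8 and 18.9 RPKM in 3x wt, against 57.7, 62.6 and 76.4 RPKM in 2x wt (-1.45). PTAC13 (-1.24), PTAC15 (-1.11), PTAC14 (-1.02) and PTAC6 (-1.02) were the others, and both PTAC14 (-0.98 and -0.96) and PTAC6 (-0.93 and -0.97) missed the fold threshold without 3x wt replicate 3 or 2x wt replicate 3. The chloroplast RNA-binding protein CP29 had 592, 440.0 and 495 RPKM in 3x wt, against 1083, 1303 and 1429.9 RPKM in 2x wt (log2 fold change -1.16 ± 0.13, adjusted p = 9.3e-05) and the plastid chaperonin CPN60B 105, 79.9 and 87.7 RPKM in 3x wt, against 268, 283 and 312 RPKM in 2x wt (log2 fold change -1.500 ± 0.09, adjusted p = 4.9e-06). Pentatricopeptide repeat (PPR) proteins, which bind and edit organelle transcripts, had 25 down-regulated (9.84%) and 2 up-regulated among 254 tested, 231 of them with a negative log2 fold change (median -0.49). Down-regulated members numbered 16 without 2x wt replicate 2, 42 with RPKM as deposited and 46 with quantile normalization. SVR7, needed for translation of plastid ATP synthase, was at 30.99 against 75.9 RPKM (-1.13), AT1G71460 at 2.72 against 10.4 RPKM (-1.61) and AT5G46580 at 24.1 against 69.99 RPKM (-1.37). Summed PPR transcripts were 1502, 1328 and 1329.7 RPKM in 3x wt, against 2231, 2296 and 2299.8 RPKM in 2x wt.

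**Figure D4:**
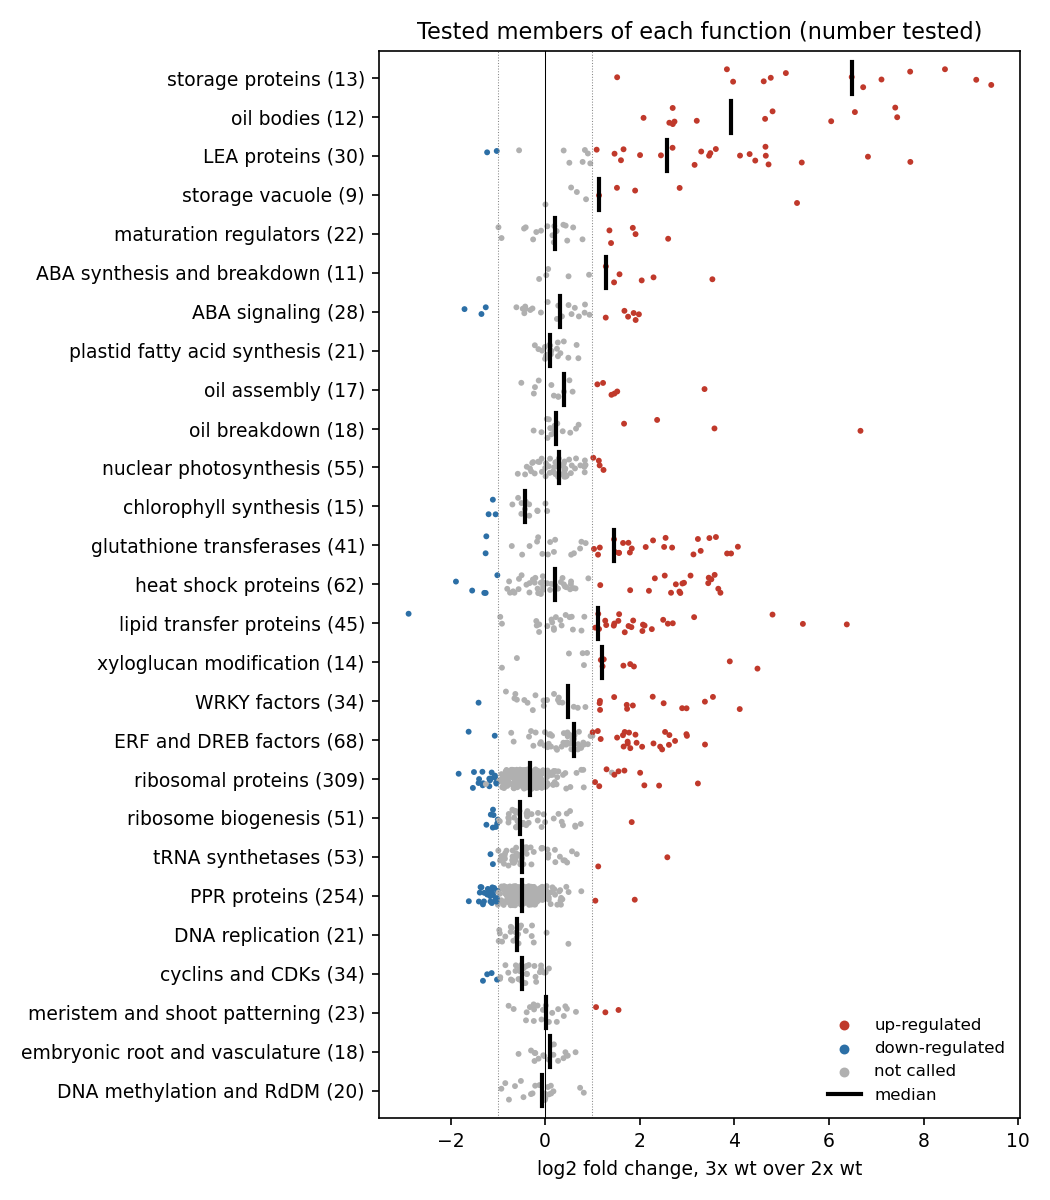
Log2 fold change of 3x wt over 2x wt (horizontal axis) for each tested member of 27 functions, with the median as a black line, red for up-regulated, blue for down-regulated and grey for genes not called; dotted lines mark -1 and 1. Storage protein and oil-body genes all lie right of 1 and reach past 9, whereas the medians of ribosomal protein, PPR, DNA replication and cyclin genes lie left of 0.

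Ribosomal protein genes had small negative values in most cases. Of 309 tested, 266 had a negative log2 fold change and 207 had every scaled 3x wt value below every 2x wt value, with a median of -0.33, and 17 were down-regulated (5.500%, beside 4.85% of all genes, but 32 members with RPKM as deposited) and 10 up-regulated. They took 12.04% of all RPKM in 3x wt, against 17.44% in 2x wt, at sums of 93827, 87069 and 87759.8 RPKM in 3x wt, against 121098, 135093 and 120762 RPKM in 2x wt. Several of the down-regulated members belong to organelle ribosomes. RPL21C (AT1G35680), a plastid-type subunit, had 115, 103 and 105 RPKM in 3x wt, against 294, 302 and 309 RPKM in 2x wt (log2 fold change -1.32 ± 0.07, adjusted p = 2.4e-06), GHS1, the plastid subunit S21, 137, 115 and 119 RPKM in 3x wt, against 307, 302 and 324 RPKM in 2x wt (-1.17), RFC3, a plastid S6-like protein, 38.6 against 116 RPKM (-1.41), and HLL, a mitochondrial L14, 10.9 against 25.6 RPKM (-1.03, and -0.96 or -0.88 without 3x wt replicate 2 or 2x wt replicate 2). AT5G28060, of the S24e family of cytosolic ribosomes, was at 332, 296 and 297 RPKM in 3x wt, against 668, 762 and 692 RPKM in 2x wt (-1.03) and missed the threshold without 2x wt replicate 2 (-0.96). AT1G58684, AT1G58983 and AT1G59359 are copies of 1 S5-family gene with values so close (means of 186, 189 and 193 RPKM in 3x wt) that their reads cannot be separated. The 10 up-regulated members include AT3G14595 and AT1G53560, of the L18ae family, and AT2G07734 and AT2G07696, which match mitochondrial sequence (treated further on), and they were 6 without 3x wt replicate 3.

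Ribosome biogenesis genes had a median of -0.54 over 51 tested, 8 down-regulated and 1 up-regulated. NAP57 (AT3G57150, chromosome 3, 21153815 to 21156075) had 133, 95.04 and 100.4 RPKM in 3x wt, against 317, 357 and 295 RPKM in 2x wt (log2 fold change -1.404 ± 0.13, adjusted p = 3.5e-05). NOP56, of the box C/D particle, had 159.9, 133 and 123 RPKM in 3x wt, against 297, 317 and 315 RPKM in 2x wt (-1.002), the fibrillarin FIB2 131, 108 and 85.8 RPKM in 3x wt, against 234, 272 and 222 RPKM in 2x wt (-1.01) and NOF1 6.77 against 16.8 RPKM (-1.11). Down-regulated members numbered 5 without 3x wt replicate 2 or 3, and without replicate 3 NOP56 (-0.93), FIB2 (-0.86) and NOF1 (-0.98) missed the fold threshold. AT1G65090, annotated as nucleolin and overlapping another gene, was the member up-regulated (427 against 134 RPKM, 1.83). Of genes that act in translation, BTF3 (AT1G17880) had 149, 138 and 135 RPKM in 3x wt, against 325, 354 and 353 RPKM in 2x wt (log2 fold change -1.12 ± 0.08, adjusted p = 8.4e-06), AT1G09590, a translation protein of the SH3-like family, 372, 340.0 and 337 RPKM in 3x wt, against 826, 974 and 914 RPKM in 2x wt (-1.202). The armadillo-repeat gene AT3G62530 had 154, 143 and 136 RPKM in 3x wt, against 508, 528 and 504 RPKM in 2x wt (log2 fold change -1.66 ± 0.08, adjusted p = 1.1e-06). These 3 and CP29 were among the 10 largest falls in mean RPKM of all genes. The aminoacyl-tRNA synthetases had a median of -0.500 over 53 tested, with OVA1 (17.8 against 45.00 RPKM, -1.16) and OVA2 (8.05 against 19.98 RPKM, -1.105) down-regulated (3.77%, beside 4.85% of all genes) and 2 genes up-regulated. Of 42 small nucleolar RNAs tested, which guide rRNA modification, 9 were down-regulated (21.4%, beside 4.85% of all genes) and none up-regulated, although a poly(A) library catches such RNA incompletely.

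Cell-cycle genes had mostly negative values. Of 34 cyclin and CDK genes tested, 32 had a negative log2 fold change, 24 had every scaled 3x wt value below every 2x wt value, and 4 were down-regulated (11.8%, beside 4.85% of all genes), namely CYCA3;2 (10.02, 7.59 and 7.35 RPKM in 3x wt, against 21.7, 27.6 and 22.4 RPKM in 2x wt, -1.31), CYCB3;1 (3.34 against 9.200 RPKM, -1.23), CYCD6;1 (2.95 against 7.91 RPKM, -1.13) and CYCB1;3 (11.4 against 26.02 RPKM, -1.02). Without 3x wt replicate 1 they were 7, and without replicate 3 CYCB1;3 was at -0.84. KRP7, an inhibitor of CDKs, was also down-regulated (1.72 against 6.39 RPKM, -1.496). It was the single call among 8 CDK inhibitors tested (12.5%, beside 4.85% of all genes), of which 3 had a positive and 5 a negative log2 fold change. KRP2 was up-regulated without 2x wt replicate 2 (1.09). KRP3 was down-regulated with RPKM as deposited (-1.16) and with quantile normalization (-1.08), for instance. Of 21 DNA replication genes 19 were negative, at a median of -0.600, and none was called, although limma gave 17 of the 19 an unadjusted p under 0.05. Down-regulated members numbered 4 with RPKM as deposited, 4 with quantile normalization and 3 with a pseudocount of 0.1. The replication clamp PCNA1 had 66.8, 57.02 and 40.6 RPKM in 3x wt, against 126, 119.7 and 107 RPKM in 2x wt (log2 fold change -0.96 ± 0.16, adjusted p = 9.5e-04), and E2F3 (-0.98) and ORC1B (-0.97) were as close to the threshold, and leaving out 3x wt replicate 1, 3x wt replicate 2 or 2x wt replicate 3 gave 5, 1 or 4 calls. No tubulin (13 tested) or kinesin (27 tested) was called, with an unadjusted p under 0.05 in limma for 6 and 13, beside 57.5% of all genes tested, except that with RPKM as deposited TUB5 was down-regulated (-1.07). Histone genes were split, with 2 up-regulated and 2 down-regulated of 41 (4.88% each, beside 11.1% and 4.85% of all genes).

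Of 23 meristem and shoot genes tested 3 were up-regulated (13.0%, beside 11.1% of all genes), CUC1 (4.32, 8.12 and 4.196 RPKM in 3x wt, against 1.71, 1.81 and 1.52 RPKM in 2x wt, 1.55), WOX9 (30.5, 34.8 and 32.02 RPKM in 3x wt, against 13.6, 14.1 and 16.6 RPKM in 2x wt, 1.27) and CLV3 (2.97 against 1.29 RPKM, 1.07, but 0.95 when 3x wt replicate 1 was left out and 0.97 when 2x wt replicate 3 was), and none of 18 root and vasculature genes was called (8 with an unadjusted p under 0.05 in limma, 6 of them positive, beside 57.5% of all genes with such a p). The epidermal marker PDF1 stood at 4003, 4056 and 3874 RPKM in 3x wt, against 2314, 2431 and 2758 RPKM in 2x wt (log2 fold change 0.84 ± 0.12, adjusted p = 4.0e-04), a difference within the fold threshold. Of the gibberellin genes, GA20OX3 (40.5 against 15.7 RPKM, 1.48) and GA3OX3 (2.91 against 0.887 RPKM, 1.42), both of synthesis, were up-regulated among 18 tested (11.1%, the same share as over all genes). No gene of DNA methylation or RNA-directed DNA methylation was called among 20 tested, 9 of which had an unadjusted p under 0.05 in limma, beside 57.5% of all genes tested. The maintenance genes MET1 (20.1 against 35.1 RPKM, -0.64), CMT3 (19.9 against 40.2 RPKM, -0.84), VIM1 (-0.77) and DDM1 (-0.93) had negative values, and the demethylases ROS1 (0.74) and DME (0.82) positive ones, all with an adjusted p under 0.05. DDM1 passed the fold threshold without 3x wt replicate 1 (-1.08) and, with RPKM as deposited, so did DDM1 (-1.09) and CMT3 (-1.01).

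FLC, the MADS repressor of flowering that is set again to an active state in each embryo, was up-regulated. FLC (AT5G10140, chromosome 5, 3173382 to 3179448) had 72.2, 72.4 and 62.8 RPKM in 3x wt, against 10.2, 10.9 and 11.1 RPKM in 2x wt (log2 fold change 2.79 ± 0.09, adjusted p = 1.6e-07). It overlaps an antisense gene, and the libraries did not mark strand. FLC was the single call among 11 tested genes of Polycomb and the FLC clade (9.09%, beside 11.1% of all genes). To this RPKM as deposited added VRN2 as down-regulated (-1.07). The related repressor SVP was at 0.984, 0.706 and 0.563 RPKM in 3x wt, against 3.67, 3.75 and 5.44 RPKM in 2x wt (-1.81). Beside 11.1% and 4.85% of all genes, 6 of 23 MADS factors tested were up-regulated (26.1%) and 4 down-regulated (17.4%). Among them were AGL87 (55.03 against 145 RPKM, -1.25) and AGL29 (-1.22, but -0.89 without 3x wt replicate 2), both lower in 3x wt, and AGL18 (1.16), which was higher.

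Many genes of detoxification rose. Of 41 glutathione transferases tested, which couple glutathione to toxic compounds, 24 were up-regulated and 2 down-regulated, with a median of 1.46. GSTU19 (AT1G78380), the most abundant, had 501, 654 and 582 RPKM in 3x wt, against 208, 181 and 171 RPKM in 2x wt (log2 fold change 1.79 ± 0.13, adjusted p = 1.2e-05), GSTU5 199, 297 and 277 RPKM in 3x wt, against 39.95, 39.1 and 76.8 RPKM in 2x wt (2.51) and GSTF6 9.94, 14.7 and 14.1 RPKM in 3x wt, against 0.2205, 0.214 and 0.688 RPKM in 2x wt (log2 fold change 4.07 ± 0.25, adjusted p = 4.7e-06). Without 1 3x wt library, 9 of the 24 could not be tested, and 14 to 15 kept the call. PER1 (AT1G48130, chromosome 1, 17780429 to 17781727), the 1-cysteine peroxiredoxin of seeds, had 157, 248 and 276 RPKM in 3x wt, against 0.643, 0.389 and 1.29 RPKM in 2x wt (log2 fold change 7.63 ± 0.27, adjusted p = 1.7e-07). AT3G52960, an abundant thioredoxin-family gene, had 5544, 6550.5 and 6522 RPKM in 3x wt, against 3498, 4299 and 2730.2 RPKM in 2x wt (1.01), a direction that flipped to -0.18 under quantile normalization. Over peroxiredoxins and thioredoxins as a list, 8 of 76 tested were up-regulated (10.5%, beside 11.1% of all genes) and 3 down-regulated, with a median of 0.14. Of 14 class III peroxidases tested 6 were up-regulated, led by AT5G64120 (22.2, 36.3 and 24.02 RPKM in 3x wt, against 1.05, 0.715 and 1.64 RPKM in 2x wt, 4.24). The metallothioneins MT2B (228 against 63.4 RPKM, 2.01), MT1A (1.98) and MT2A (1.38), which bind metal ions, rose. The list of metallothionein and iron genes had 5 up-regulated (27.8%) and 2 down-regulated (11.1%) among 18 tested, beside 11.1% and 4.85% of all genes. Cytochromes P450 were up-regulated in 31 of 83 tested cases and down-regulated in 1, with CYP81D8 (13.9 against 0.157 RPKM, 4.45) and CYP76G1 (0.107 against 3.52 RPKM, -2.65) at the ends, and 14 to 16 of the 31 kept the call without 1 3x wt library, since 15 were then not tested.

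Of 62 heat shock protein genes tested, 18 were up-regulated (29.0%) and 5 down-regulated (8.06%), beside 11.1% and 4.85% of all genes. HSP70 (AT3G12580), a cytosolic chaperone, had 484, 769 and 544 RPKM in 3x wt, against 65.2, 51.8 and 139 RPKM in 2x wt (log2 fold change 3.07 ± 0.31, adjusted p = 6.0e-05), and HSP101, the disaggregase that seeds accumulate, 178, 279 and 195 RPKM in 3x wt, against 28.9, 21.1 and 68.4 RPKM in 2x wt (log2 fold change 2.76 ± 0.35, adjusted p = 2.1e-04). Small heat shock proteins were most of the rest, such as HSP17.4 (39.01 against 5.96 RPKM, 2.86), HSP17.6II (124 against 20.02 RPKM, 2.84) and HSP21 of plastids (3.13, 7.26 and 1.24 RPKM in 3x wt, against 0 in each 2x wt library). HSP60-2 of mitochondria (30.7 against 82.7 RPKM, -1.26) and HSP91 (43.8 against 99.3 RPKM, -1.01) were down-regulated, HSP91 with -0.96 to -0.99 without 3x wt replicate 2 or 3 or 2x wt replicate 2. Replicate 3 was the highest of the 2x wt libraries for 17 of the 18 up-regulated genes. Without 1 2x wt library, 2 of the 5 falls could still be tested, and 1 or 2 kept the call. Of 15 heat shock factors 6 were up-regulated, and replicate 3 was the highest 2x wt library for all 6. They include HSF4 (21.7 against 5.62 RPKM, 2.01), HSFA7A (22.5 against 6.52 RPKM, 2.42) and HSFA2 (127 against 68.8 RPKM, 1.14). The adjusted p of HSFA7A and HSFA2 was 0.099 and 0.24 in a fit of all 12 libraries, and HSFA2 was at 0.95 to 0.99 without 3x wt replicate 2 or 2x wt replicate 1 or 2.

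Genes of the cell wall and surface were also called. LTP2 (AT2G38530, chromosome 2, 16128176 to 16129399), a lipid transfer protein of the epidermal wall, had 4492, 7722 and 7517 RPKM in 3x wt, against 94.6, 83.8 and 79.7 RPKM in 2x wt (log2 fold change 6.37 ± 0.21, adjusted p = 1.6e-07) and was among the 10 largest rises in mean RPKM of all genes, and LTP3 had 227, 430.3 and 359.8 RPKM in 3x wt, against 9.42, 6.200 and 8.397 RPKM in 2x wt (5.45). Over the family 24 of 45 tested were up-regulated and 1 was down-regulated (AT5G55410, 1.46 against 12.01 RPKM, -2.89). Of 14 xyloglucan-modifying enzymes, which loosen or rejoin wall polymers, 8 were up-regulated, from XTH25 (8.19, 19.5 and 17.5 RPKM in 3x wt, against 0.1496, 0.362 and 0.09999 RPKM in 2x wt, 4.49) and XTH24 (24.6, 45.6 and 40.9 RPKM in 3x wt, against 1.904, 2.16 and 2.54 RPKM in 2x wt, 3.902) to TCH4 (470.4 against 237 RPKM, 1.18). Expansins went both ways, with EXLA1 (3.39) and EXPA1 (38.7 against 11.6 RPKM, 1.85) up-regulated and EXPA10 (10.6 against 30.7 RPKM, -1.32) and EXPA6 (-1.18) down-regulated. Pectin methylesterases and their inhibitors had 13 rises and 1 fall among 39 tested. The extensin EXT4 had 28.96, 30.2 and 23.8 RPKM in 3x wt, against 0.143, 0 and 0.0957 RPKM in 2x wt. Of 21 aquaporins 8 rose, among them PIP2;5 (1.99), NIP1;2 (1.78) and PIP2A (1.68) beside the seed tonoplast pair given above, and none fell. Thionin AT2G15010 (43.3, 66.8 and 76.6 RPKM in 3x wt, against 0.131, 0.254 and 0.175 RPKM in 2x wt, 6.57) and the defensin LCR68 (198, 258 and 323 RPKM in 3x wt, against 17.5, 22.6 and 20.5 RPKM in 2x wt, 3.79) led 16 up-regulated genes of 28 antimicrobial peptides tested, of which 7 could be tested and 6 or 7 kept the call without 1 3x wt library.

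Counts differed between families of transcription factors, and are set beside 11.1% up-regulated and 4.85% down-regulated over all genes. Among WRKY factors 14 of 34 were up-regulated (41.2%) and 1 was down-regulated (2.94%), with WRKY6 (13.6, 16.8 and 17.5 RPKM in 3x wt, against 0.836, 0.154 and 0.745 RPKM in 2x wt, 4.11) highest and WRKY41 (2.16 against 6.97 RPKM, -1.41) lowest, and 8 or 9 rises kept the call without 1 3x wt library because 5 of the 14 were then not tested. ERF and DREB factors had 24 rises (35.3%) and 2 falls (2.94%) among 68. ERF2, of ethylene and jasmonate responses, had 64.1, 66.5 and 73.4 RPKM in 3x wt, against 16.5, 6.305 and 16.3 RPKM in 2x wt (2.62), ERF104 60.7, 55.1 and 62.3 RPKM in 3x wt, against 12.1, 6.61 and 27.97 RPKM in 2x wt (2.29) and ERF13 223, 185 and 250.1 RPKM in 3x wt, against 88.2, 49.3 and 88.1 RPKM in 2x wt (1.74), whereas CBF2, of cold responses, had 5.81, 7.22 and 2.63 RPKM in 3x wt, against 17.7, 15.05 and 20.98 RPKM in 2x wt (-1.62). Of 38 NAC factors 11 rose (28.9%) and 3 fell (7.89%), with NAC060, a seed regulator of sugar and ABA responses, at 5.88, 7.500 and 7.098 RPKM in 3x wt, against 0.203, 0.131 and 0.452 RPKM in 2x wt (3.38) and NAC019 at 14.1 against 1.54 RPKM (2.93). MYB15 (5.11, 13.4 and 14.8 RPKM in 3x wt, against 0, 0 and 0.298 RPKM in 2x wt, 4.27) led 7 rises among 42 MYB factors (16.7%). By annotated family, the highest shares of up-regulated genes were found for VQ-motif proteins, partners of WRKY factors (9 of 15), cupins (10 of 17), the lipid transfer and 2S albumin family (20 of 36), glutathione transferases of the TAU class (7 of 13) and xyloglucan endotransglucosylases (7 of 13), beside 11.1% of all genes tested. The highest shares of down-regulated genes, beside PTAC, were those of cysteine- and histidine-rich C1 domain proteins (5 of 16) and TCP factors, which regulate growth (3 of 10). These families were picked for their shares after the values were seen.

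Genes of auxin response were mixed. Of 46 AUX/IAA and SAUR genes 11 were up-regulated (23.9%) and 3 down-regulated (6.52%), beside 11.1% and 4.85% of all genes. IAA30 (57.5 against 30.5 RPKM, 1.08, but 0.93 without 2x wt replicate 2) and IAA20 (12.5 against 5.33 RPKM, 1.32) were among the rises. Without 1 3x wt library 5 to 7 of the 11 kept the call, as 7 could be tested.

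Some genes were expressed in 1 group alone or nearly so. By the estimated depths, no 2x wt library had more than 3 reads for 181 tested genes, 178 of which were up-regulated, and no 3x wt library for 74, 48 of which were down-regulated. The filter itself raises both shares, since a gene absent from 1 group was tested only where it reached 1 RPKM in the libraries of the other. Folds below are lower bounds at 3 reads per library, from the estimated depths, and are given where the lower group was at 0 throughout. AT4G07965, an uncharacterized gene, had 43.4, 45.2 and 39.7 RPKM in 3x wt, against 0 in 2x wt, at least 69.1-fold higher. MSRB6, a methionine sulfoxide reductase, had 19.6, 32.3 and 35.3 RPKM in 3x wt, against 0 in 2x wt, at least 115-fold higher. AT1G04560, of the AWPM-19-like family, had 65.7, 113 and 125 RPKM in 3x wt, against 0.463, 0 and 0 RPKM in 2x wt (log2 fold change 7.39 ± 0.31, adjusted p = 4.9e-07). The uncharacterized gene AT1G47395 had 121, 173 and 232 RPKM in 3x wt, against 0 in 2x wt, at least 558-fold higher, and its uncharacterized neighbour AT1G47400 had 45.9, 65.9 and 121 RPKM in 3x wt, against 0.337, 0 and 0 RPKM in 2x wt (log2 fold change 7.01). On the other side, AT2G41082 was at 0 in 3x wt, against 2.26, 8.77 and 5.04 RPKM in 2x wt, at least 3.29-fold lower. Among strong falls of genes found in both groups, ENODL10, an early nodulin-like protein of the cell surface, had 2.64, 0.455 and 0.805 RPKM in 3x wt, against 11.5, 15.8 and 11.8 RPKM in 2x wt (log2 fold change -2.96 ± 0.38, adjusted p = 2.2e-04) and the TRAF-like gene AT1G65150 2.24, 1.17 and 0.667 RPKM in 3x wt, against 13.6, 14.3 and 14.2 RPKM in 2x wt (-2.92). AT1G50650, of the Stig1 family, had 9.72, 2.302 and 1.11 RPKM in 3x wt, against 19.8, 30.3 and 31.7 RPKM in 2x wt (-2.77). The transcript AT3G22121, annotated as another RNA and overlapping a gene, rose and was abundant in 3x wt, with 2401, 3143 and 3410.0 RPKM in 3x wt, against 28.8, 39.3 and 65.4 RPKM in 2x wt (log2 fold change 6.28 ± 0.25, adjusted p = 4.1e-07).

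Among 46 microRNA precursors tested, 9 were up-regulated (19.6%) and 7 down-regulated (15.2%), beside 11.1% and 4.85% of all genes. The precursors of miR166, which restricts class III HD-ZIP factors to the upper side of organs, were higher, MIR166a with 29.1, 26.7 and 23.6 RPKM in 3x wt, against 9.32, 7.34 and 16.4 RPKM in 2x wt (1.46) and MIR166b with 11.4, 11.8 and 11.7 RPKM in 3x wt, against 2.83, 2.74 and 2.84 RPKM in 2x wt (2.02), while MIR165a of the same target family was at 0 in 3x wt, against 3.14, 1.52 and 1.05 RPKM in 2x wt. MIR156c, whose product holds back the change to adult growth, had 33.8, 36.8 and 37.3 RPKM in 3x wt, against 20.3, 12.4 and 21.5 RPKM in 2x wt (1.17, but 0.94 without 2x wt replicate 2). MIR775 (2.08 against 8.13 RPKM, -1.58) and MIR158a (1.703 against 8.66 RPKM, -1.94) fell. In a fit of all 12 libraries the adjusted p was 0.14 for MIR158a, 0.053 for MIR166a and 0.087 for MIR166b. A poly(A) library measures the primary transcript and not the mature microRNA. Of 113 genes annotated as transcribed pseudogenes 31 rose (27.4%) and 13 fell (11.5%), while of 115 annotated as pseudogenes 22 rose (19.1%) and 31 fell (27.0%). Over all genes tested the shares were 11.1% and 4.85%.

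Chromosome 2 had a higher share of up-regulated genes (367 of 2765, 13.3%) than the other chromosomes, where it ran between 9.77% and 11.3%. Part of this share lay in a block of genes that carries a copy of mitochondrial DNA. Of the genes in the table, 132 had at least 50% of their 50-base words in the mitochondrial genome of the same assembly, and 129 of these lie on chromosome 2. Of the 56 that were tested, between 3240494 and 3503476 on chromosome 2, 50 were up-regulated and none down-regulated, with log2 fold changes of 0.52 to 3.52 and a median of 1.86. Many of the 56 had a mean under 1 RPKM in 2x wt and passed the filter mainly through 3x wt, so the filter itself raises the share up-regulated. Summed over the 56, RPKM were 307, 380 and 302 in 3x wt, against 112, 103 and 46.3 in 2x wt, and 104, 109 and 65.8 in 3x nrpd1, against 128, 164 and 141 in 2x nrpd1. The interaction with pollen genotype was positive for 33 of them and negative for none. Without genes that match an organelle genome, chromosome 2 had 317 up-regulated genes of 2709 (11.7%) and all chromosomes 1937 of 17907 (10.8%). The table also lists 279 mitochondrial and plastid gene IDs, each at 0 in all 12 libraries, so reads of the nuclear copy and of mitochondrial transcripts cannot be told apart here, and the set was chosen with its values in view.

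**Figure D5:**
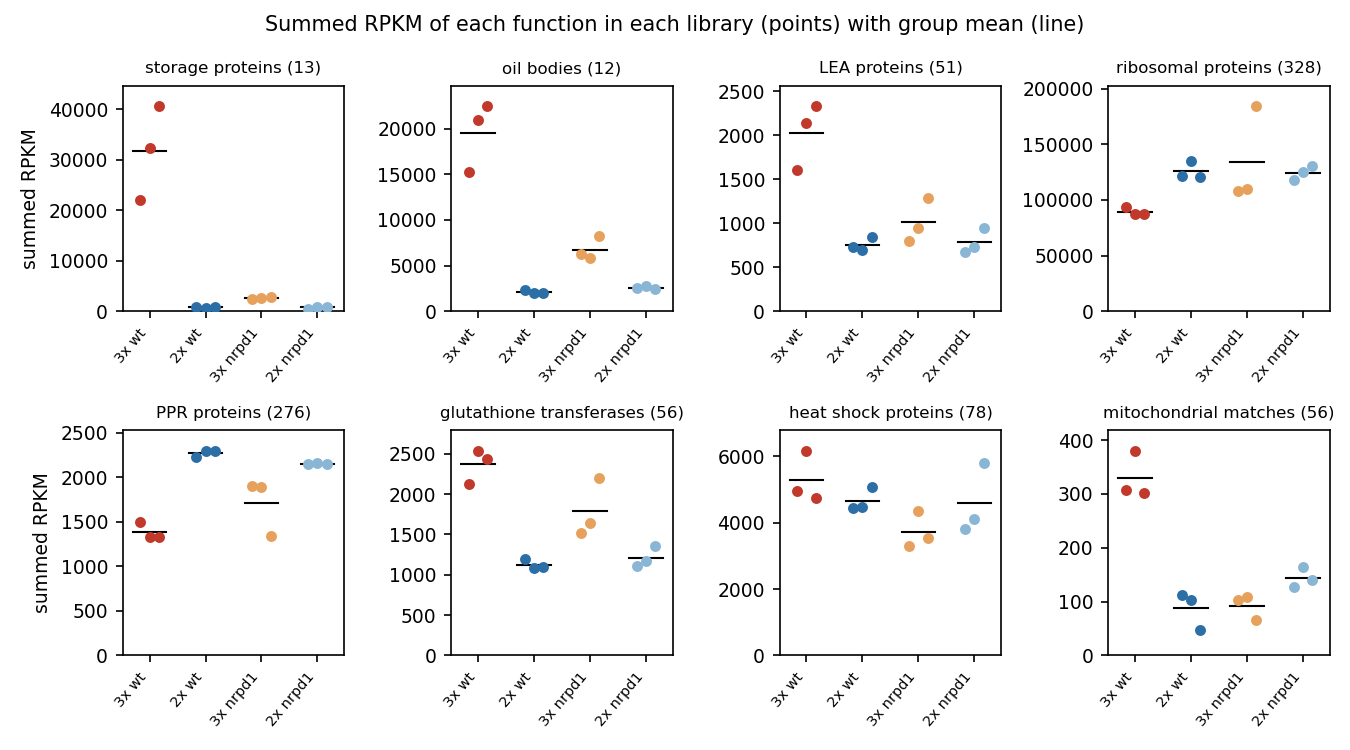
Summed RPKM per library (points; line, group mean, n = 3) for 7 functions and for the 56 tested genes that match mitochondrial DNA, in 3x wt, 2x wt, 3x nrpd1 and 2x nrpd1; each axis starts at 0. The 3x wt libraries lie apart from 2x wt in all panels but heat shock proteins, and replicate 3 of 3x nrpd1 stands apart from its group for ribosomal and PPR proteins.

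Whether the ploidy difference depended on the pollen genotype was tested in all 12 libraries, as (3x wt - 2x wt) - (3x nrpd1 - 2x nrpd1). Of 18561 genes, 988 had a more positive ploidy difference with wt pollen (5.32%) and 515 a more negative one (2.77%). Leaving out 3x wt replicate 2 or 3 lowered the positive count to 458 or 450, and leaving out 3x wt replicate 3 lowered the negative count to 334. By function, the interaction was positive for 12 of the 13 storage protein genes, 11 of 12 oil-body genes and 17 of 30 LEA genes. It was 3.85 for SESA3, whose 3x nrpd1 libraries had 686, 669 and 849.8 RPKM, against 36.3, 79.9 and 55.7 RPKM in 2x nrpd1. For FLC it was 1.49, at 29.6, 23.1 and 27.7 RPKM in 3x nrpd1, against 10.7, 11.1 and 12.99 RPKM in 2x nrpd1. It was negative for 12 and positive for 3 of 310 ribosomal protein genes, and negative for the 3 down-regulated genes of chlorophyll synthesis and for PYL8 and PYL2. The ribosomal protein sum of 3x nrpd1 replicate 3 (184030 RPKM, with 107991 and 110062 RPKM in replicates 1 and 2) stood above the rest of its group. Without that library 1164 genes had a positive and 559 a negative interaction.

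Markers of neighbouring tissues were checked beside these results. Of 16 endosperm markers 4 were tested, with PHE1 (1.22, 1.96 and 1.56 RPKM in 3x wt, against 0 in 2x wt) up-regulated and ALE1 (0.397 against 2.35 RPKM, -1.69) down-regulated, and the list summed to 95.2, 88.6 and 96.05 RPKM in 3x wt, against 70.5, 58.2 and 61.6 RPKM in 2x wt. PHE1 could not be tested with any 3x wt library left out, nor ALE1 with any 2x wt library left out. Of 14 seed coat markers 6 were tested and 4 up-regulated, TT10 (8.102, 6.12 and 3.82 RPKM in 3x wt, against 0.2304, 0.298 and 0.719 RPKM in 2x wt), BAN (5.84, 4.58 and 3.696 RPKM in 3x wt, against 0.647, 0.376 and 0.2595 RPKM in 2x wt), TT19 (1.28 against 0.1997 RPKM) and SBT1.7 (279.8 against 141 RPKM), and 1 of the 4 could be tested and kept its call without 1 3x wt library. The other 2 tested had negative values, with every scaled 3x wt value below every 2x wt value. TT12, 1 of these 2, was not called. It was down-regulated with RPKM as deposited (-1.08), quantile normalization (-1.36) or without 3x wt replicate 1 (-1.2), for instance. The seed coat list summed to 266, 328 and 308 RPKM in 3x wt, against 162, 151 and 150.0 RPKM in 2x wt, and TT2 and AGL36 were at 0 in all 6 libraries. SBT1.7 made up most of that sum, whose means were 300.7 and 154.2 RPKM. With RPKM as deposited SBT1.7 was at 0.98 and not called. The part of these tissues in the rises above was not tested. Of 16 embryo markers 15 were tested, 3 of them up-regulated (20.0%, beside 11.1% of all genes) and none down-regulated.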

How the data were processed

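Poly(A) libraries of dissected embryos, made with a kit that does not mark strand (TruSeq v2), were sequenced in pairs and processed by the authors with Trimmomatic, TopHat2 (TAIR10 masked for rRNA genes, 1 alignment per read) and GFOLD. They deposited 1 RPKM value per gene and library, and how counts became RPKM is not given in the sources used here. A single placement per read can shift values of near-identical genes and of nuclear copies of organelle DNA. Depths are estimates from the steps of RPKM times exon length, of which 33.7% to 37.1% of low values in the 6 libraries came out within 0.01 of a whole read.

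As RPKM are not counts, limma replaced the count test of the study's methods, with the study's thresholds. The 6 wt libraries were put on one scale with median ratios, a gene needed 1 RPKM or more in 3 or more of them, and log2(RPKM + 0.5) was fitted per group with an intensity trend (limma 3.58.1, statmod 1.5.0, R 4.3.3). Fold changes are on this scale, which understates the change of low genes, and their ± is the SE, while RPKM per library are printed as deposited. P-values are two-sided, Benjamini-Hochberg adjusted over all genes tested, and measure the spread between pools of embryos. The interaction was fitted likewise on all 12 libraries, and both fits were tested on simulated data. Python 3.11.15 with numpy 2.4.6, pandas 2.3.3, scipy 1.17.1 and matplotlib 3.10.9 did the rest.

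Groups came from the cross in each sample's labels, and gene names, positions and promoters from the RefSeq annotation of TAIR10.1. Lists and members were chosen with earlier results of these data known. Genes named are the 15 highest and 15 lowest log2 fold changes without overlap between groups, the 10 largest rises and falls of mean RPKM, the extreme and most abundant members of each list, genes that the study names and the highest genes absent from 1 group, as far as space allowed; every other gene was chosen after its values were seen. Alternatives were the pseudocount (0.1 or 1), the filter (none, or a mean of 5 RPKM), scaling (none or quantile), removal of the trend with exon length, a fit of all 12 libraries, the replicate number as a block and each library left out. The share of chromosome 2 without organelle matches and the split of lost calls into genes not tested and genes below threshold, and the interaction without each nrpd1 library, were added after seeing the data.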

Additional observations from a re-analysis of the deposited data

Results flagged for a closer look

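The ploidy difference differed between pollen genotypes for 988 genes in the positive and 515 genes in the negative direction, out of 18561 tested with the limma interaction term over all 12 libraries (adjusted p under 0.05 and an interaction beyond 1 on the log2 scale in either direction). A positive interaction means that the log2 difference of 3x wt over 2x wt was above that of 3x nrpd1 over 2x nrpd1. These values are given with no explanation. Replicate 3 of 3x nrpd1 stood apart in its ribosomal protein sum and in further sums. The 16 embryo markers, PDF1 among them, summed to 2022 RPKM in that library, with 3938 and 3429 RPKM in replicates 1 and 2. With that library left out, 1164 interactions were positive and 559 negative, as given above. The part of that library in the interactions of single genes was not tested.

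Of the seed storage protein genes named, the interaction was 6.32 for CRC, 4.46 for SESA2, 3.85 for SESA3, 3.66 for SESA5, 3.15 for CRA1 and 3.11 for PAP85. Among oil-body genes, it was 2.84 for OLEO1, 1.64 for OLEO2, 2.26 for OLEO5, 4.54 for CLO1, 5.95 for CLO2, 2.31 for HSD5, 6.43 for HSD1 (AT5G50600) and 6.37 for its near-identical copy AT5G50700. For LEA and storage vacuole genes, the interaction was 7.22 for LEA, 5.73 for TIP3;1, 5.59 for ECP63, 3.55 for XERO1 and 1.94 for TIP3;2. It was 3.24 for NCED9, 2.76 for DOG1, 2.21 for BGLU18, 1.95 for ABI5, 1.88 for CYP707A2, 1.7 for RS5, 1.12 for NCED3, -1.63 for PYL2 and -1.66 for PYL8 among maturation, ABA and sugar genes. Of the oil synthesis and glyoxylate-cycle genes named, the interaction was 2.99 for ICL, 2.71 for MLS, 1.87 for LACS7, 1.8 for FAE1, 1.72 for DGAT3, 1.2 for FAD2 and 1.17 for PCK1. Among detoxification and heat genes, it was 6.43 for PER1, 6.06 for MSRB6, 4.87 for CYP81D8, 3.43 for HSP21, 3.27 for AT5G64120, 2.46 for GSTF6, 1.66 for HSF4, 1.29 for GSTU19 and -2.79 for CYP76G1. For wall, surface and water-channel genes, the interaction was 5.55 for EXT4, 4.32 for AT2G15010, 3.6 for LTP2, 3.58 for LCR68, 2.85 for XTH25, 2.42 for EXLA1, 1.99 for XTH24, 1.79 for PIP2;5, 1.78 for LTP3, 1.32 for NIP1;2, 1.29 for PDF1, -1.28 for EXPA10, -3.72 for ENODL10 and -4.02 for AT5G55410.

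It was 3.49 for NYE2, -1.14 for PTAC12, -1.14 for PTAC15, -1.21 for CPN60B, -1.22 for CHLI1, -1.23 for GSA1, -1.31 for PTAC13, -1.37 for AT1G71460 and -1.59 for PORC among plastid genes. Of the ribosome, translation and nucleolar genes named, the interaction was 3.31 for AT2G07734, 2.07 for AT1G53560, 1.49 for AT3G14595, -1.02 for NAP57, -1.17 for GHS1, -1.21 for RFC3, -1.22 for BTF3, -1.3 for AT1G58684, -1.31 for AT1G58983, -1.31 for AT1G59359, -1.38 for AT1G09590, -1.57 for RPL21C and -1.8 for AT3G62530. Among transcription factor genes, it was 3.21 for WRKY6, 2.49 for MYB15, 2.32 for NAC060, 1.9 for NAC019, 1.49 for FLC, -1.46 for SVP, -1.91 for WRKY41, -2.02 for AGL87 and -2.39 for CBF2. For cell-cycle and meristem genes, the interaction was 1.68 for CLV3, -1.22 for CYCA3;2 and -1.45 for KRP7. It was 3.2 for BAN, 3.08 for TT10, 1.22 for SBT1.7 and -2.11 for ALE1 among seed coat and endosperm markers. Of the genes with the largest changes named, the interaction was 8.47 for AT1G47395, 7.21 for AT1G04560, 7.13 for AT1G47400, 6.5 for AT4G07965, 5.29 for AT3G22121, -2.08 for AT1G65150, -3.23 for AT1G50650 and -4.18 for AT2G41082.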

How the results depend on the processing

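With a filter of a mean of 5 RPKM, which tests fewer genes, 1215 genes were up-regulated and 498 down-regulated in 3x wt, and 514 had a positive interaction. Leaving out each of the 6 wt libraries in turn gave 1401 to 2003 up-regulated and 678 to 1031 down-regulated genes, 450 to 851 positive interactions and 334 to 567 negative ones, and leaving out each nrpd1 library gave 753 to 1202 and 410 to 696. Without a 3x wt library a gene expressed in 3x wt alone no longer met the filter. Under the other alternatives these 4 counts stayed within 1.5 times their value. Of 320 genes that the rule or the text names, AT3G52960 alone among those called reversed, to -0.18 under quantile normalization, and the cause was not tested, while 17 that were not called changed sign under some setting. Replicate numbers were shared by the groups, but same-numbered 3x wt and 2x wt libraries did not deviate together (r across genes of -0.09, -0.03 and 0.08), and 3x wt replicate 1 correlated best with 2x wt replicate 2. The replicate block gave 1995 up-regulated and 878 down-regulated genes, with 1016 positive and 510 negative interactions. Of the 320, 9 lost the call with RPKM as deposited and 9, AT3G52960 included, with quantile normalization, while 12 and 9 gained one. Among those lost were FAD3 (0.94 and 0.97), CLV3 (0.95 and 0.87), IAA30 (0.92 and 0.98) and LHB1B2 (0.99 and 0.39). The small positive medians of plastid fatty acid synthesis (0.11 with median-ratio scaling, -0.06 as deposited) and MYB factors (0.1 and -0.05) turned negative with RPKM as deposited, which also lowered the median of all genes. Depth limits genes under a few reads per library, whose fold changes depend on the pseudocount.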
